A study of Gallus gallus with 6 samples.

Results

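TGF-beta and BMP pathway genes were examined in ICP1, a chicken cell line of immortalized preadipocytes, which are precursors of fat cells. The members were the rows of the deposited gene table whose gene name was one of 52 listed symbols of the pathway, and 44 of the 52 were found among 18495 genes. KLF2 libraries (n = 3) came from wells transfected with the expression plasmid pCMV-myc carrying KLF2, a Krüppel-like factor that binds DNA through zinc fingers, and EV libraries (n = 3) from wells given the empty pCMV-myc plasmid. Cells of both groups were harvested 48 h after transfection, and poly(A)-selected RNA was sequenced. By its title, the study concerns KLF2 as a possible suppressor of adipogenesis in chicken. Per the labels each replicate was the content of 1 well of 1 line, p-values therefore cover the variation among wells, and no sort for transfected cells is described. In bulk RNA of this kind fewer cells of a type and less RNA per cell cannot be told apart.

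Ligands of the TGF-beta superfamily bind a pair of type II and a pair of type I receptor kinases on the cell surface. TGF-beta and activin receptors phosphorylate SMAD2 and SMAD3, BMP receptors phosphorylate SMAD1, SMAD5 and SMAD9, and both sets enter the nucleus with SMAD4. SMAD6 and SMAD7, the secreted antagonists and the SMURF ubiquitin ligases restrain the signal, and the ID genes are direct targets of the BMP arm. In preadipocytes of mammals TGF-beta is known to hold back adipocyte differentiation, whereas several BMPs favour commitment to the fat lineage.

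Libraries held 13255169 to 14168807 assigned reads. KLF2 itself had 1052, 1618 and 2412 normalized counts in KLF2 1 to 3, against 1093, 675 and 697 in EV 1 to 3, so KLF2 1 lay below EV 1 and the labels were kept as given. Its log2 fold change of KLF2 over EV was 1.00 (SE 0.31). In limma its p was 0.0126 before and 0.962 after Benjamini-Hochberg adjustment over all tested genes. The authors' deposited test gave KLF2 a log2 fold change of 1.04, with a p of 0.000302 before and 0.9999 after adjustment. The two-sided exact permutation p was 0.2, and 0.1 is the smallest that 3 against 3 can give. KLF2 3 and EV 1 stood apart from the other libraries, with KLF2 1 farthest from them: the first principal component over 10893 genes, with 67.1% of the variance, had scores of -42.5, -15.6 and 27.1 in KLF2 1 to 3 and 38.5, -5.52 and -2.00 in EV 1 to 3. All 10 preadipocyte and fibroblast markers were found, among them COL1A1, COL1A2, FN1 and PDGFRA, with summed normalized counts of 52815 to 64386 in KLF2 and 61450 to 74767 in EV libraries, while CD34 and DLK1 averaged under 10. The 4 epithelial markers together had 2.03 to 13.4 normalized counts in KLF2 and 11.2 to 14.3 in EV libraries, and the 4 leukocyte markers 989 to 1264 in KLF2 and 915 to 1281 in EV libraries, most of it from SPI1.

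By level per length, TGFB1, LTBP1 and TGFB3 were high in ICP1 cells, and BMP2, BMP4, BMP5 and BMP6, the BMPs found by name, were low. Level is given as normalized count per kb of the gene length listed in the table, averaged over the 6 libraries. What that length measures was not stated in the sources used here, and every ranking of genes by level rests on it. TGFB1 stood at 1448 per kb, LTBP1 at 1063, TGFB3 at 654 and BAMBI at 593, with overlapping ranges over libraries for TGFB1 and LTBP1 and for TGFB3 and BAMBI, and these 4 of 44 members were at or above the 90th percentile of the 16765 tested genes, whose median was 48.4 per kb. Another 18 members lay under that median. The summed level of BMP2, BMP4, BMP5 and BMP6 was 20.9 to 29.7 per kb in KLF2 and 24.7 to 31.6 per kb in EV libraries, against 1508 to 2517 in KLF2 and 2227 to 2588 in EV libraries for TGFB1, TGFB2 and TGFB3 together. TGFB1 made up 68.2% ± 1.89 of that TGFB sum in KLF2 libraries, against 66.9% ± 0.502 in EV libraries (SD, n = 3 each), and from 66.3% to 70.2% over the 6 libraries.

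**Figure D1:**
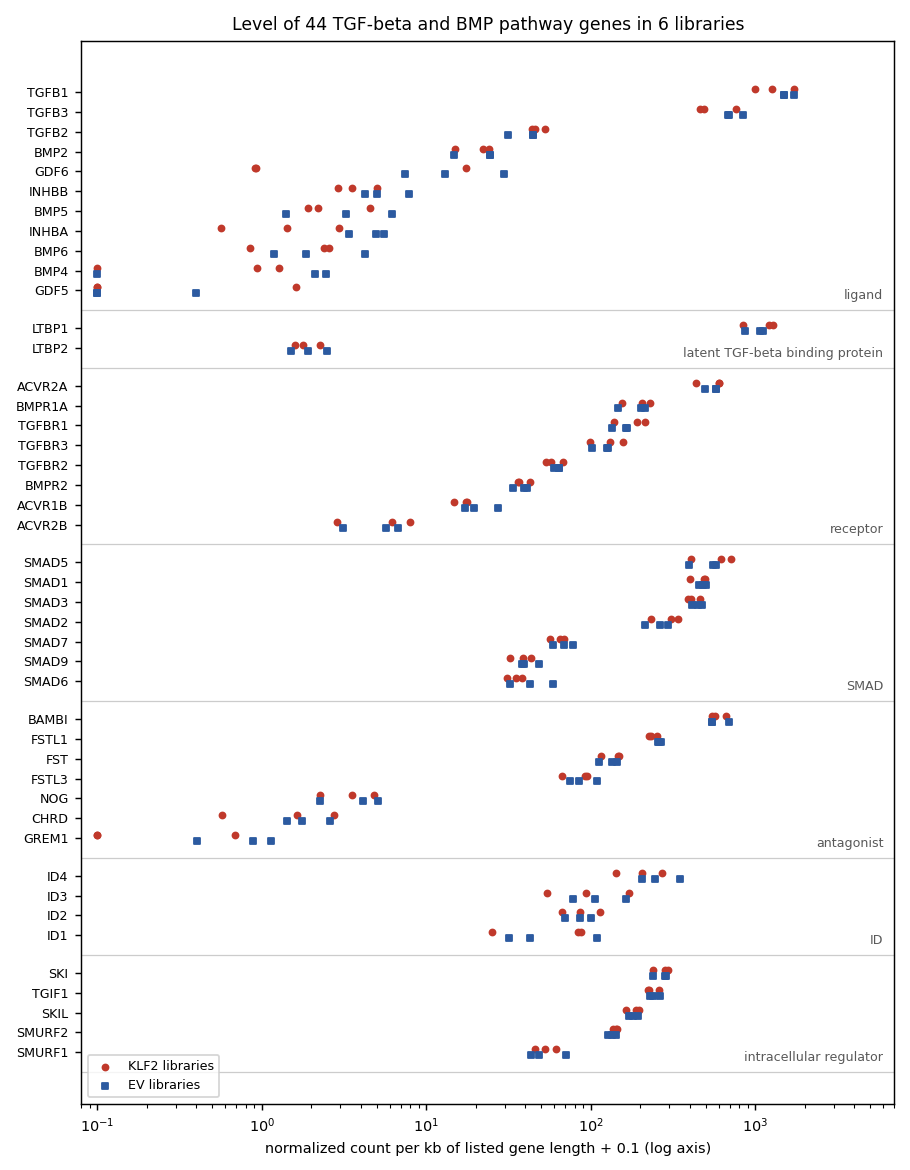
Level of each of the 44 members per library, as normalized count per kb of listed gene length plus 0.1 on a log axis, grouped by role. Red circles are KLF2 libraries and blue squares EV libraries. TGFB1 (1448 per kb on average), LTBP1 (1063), TGFB3 (654) and BAMBI (593) lead, and the 2 colours overlap for all members but FSTL1 and INHBA. Groups did not overlap for 5.91% of all genes with a mean of at least 10. No such share was computed at the lower level of INHBA.

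None of the 44 members differed between KLF2 and EV libraries past the threshold. All 44 passed the filter on low values, a mean of at least 1 normalized count in either group. In robust limma-trend on log2(normalized count + 1), 0 of 44 members had an adjusted p below 0.05, where 0% of the 16765 tested genes did. The added 1 shrinks log2 fold changes of low genes, though for GDF6 other fits gave smaller changes (below). INHBA was the 1 member with an unadjusted p under 0.05, which is 2.27% of members, against 2.11% of all tested genes. On read counts recovered from the normalized values, edgeR called 0 of 37 members and DESeq2 0 of 44 (0% of tested genes in both). At an unadjusted p under 0.05 they listed 0 members, against 1.26% and 0.936% of tested genes. INHBA was not among the 37 members that passed the edgeR filter, so the edgeR count does not bear on INHBA. In the authors' deposited table, 0 of 44 members had an unadjusted p below 0.05, against 0.936% of genes with a p there, and TGFB3 had the lowest, 0.0914. DESeq2 on recovered reads gave the same p for TGFB3 and the same count at that level, 173 of 18492 genes. The deposited test and the DESeq2 fit are therefore not separate evidence.

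Of the 44, 17 had a positive and 27 a negative log2 fold change of KLF2 over EV, with a median of -0.06, against a median of -0.01 over all tested genes. Among the 37 members with a mean of at least 10, the groups did not overlap for 1, FSTL1, which was lower in KLF2 libraries; that is 2.70% of these members, where 5.91% of genes at this level did not overlap, 2.88% being lower and 3.03% higher in KLF2 libraries. The 95% interval of the log2 fold change lay within 1 unit of 0, which is a 2-fold change, for 30 of the 37 members at this level (81.1%, against 78.6% of all genes there), or 68.2% of the 44 members, against 55.3% of all tested genes. With all 6 libraries, the intervals of those 30 limit any difference to less than 2-fold, unadjusted for the number of genes. That limit depended on the libraries used. Without KLF2 3, the intervals of ID4 (-1.08 to -0.12) and ACVR1B (-1.08 to 0.33) passed 1 unit. For the 7 members with a mean under 10 (BMP4, BMP6, INHBA, GDF5, GREM1, NOG and CHRD) no such limit could be set. Nor could it be set for GDF6, INHBB, BMP5, LTBP2, ACVR2B, ID1 and ID3, whose means were at least 10 but whose intervals passed 1 unit.

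**Figure D2:**
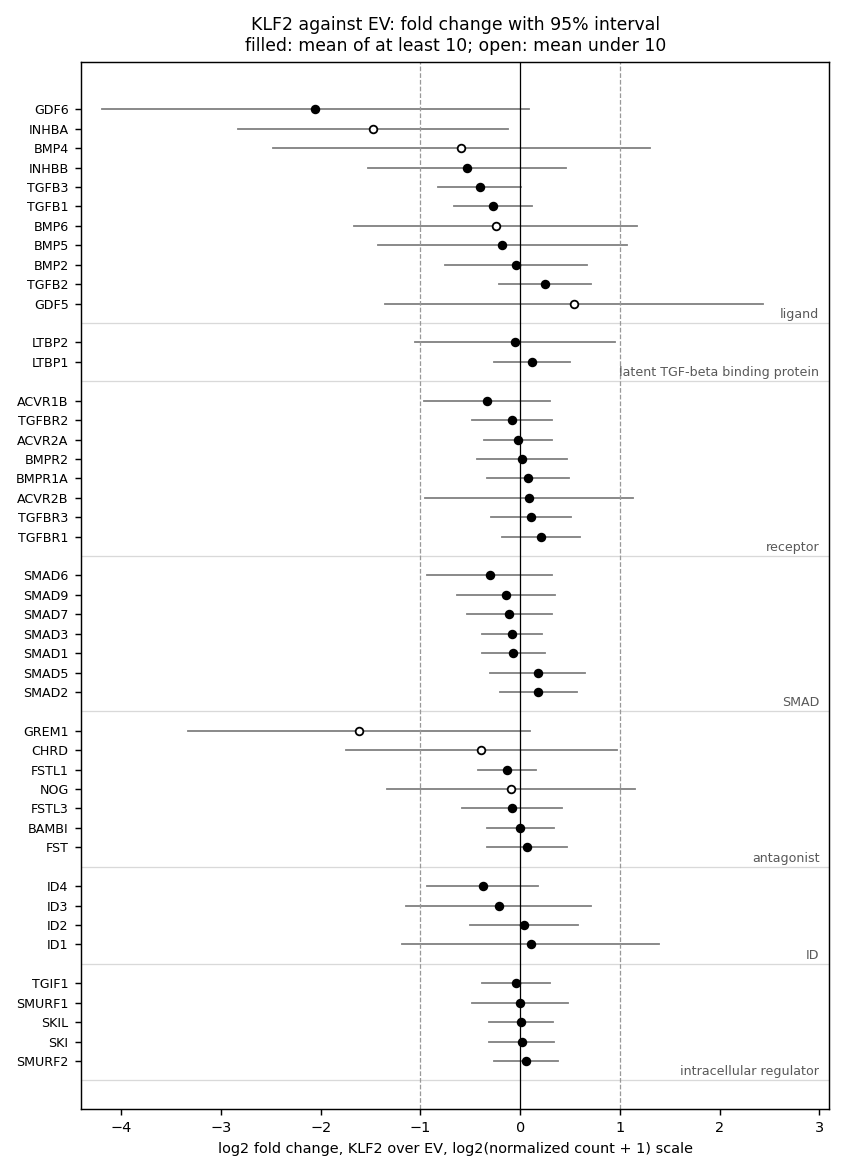
Log2 fold change of KLF2 over EV with its 95% interval for the 44 members, by role. Filled points have a mean of at least 10 normalized counts and open points less; dashed lines mark 2-fold. Wide intervals belong to low genes such as GDF6 (-4.19 to 0.09) and GREM1 (-3.33 to 0.10), and INHBA (-2.83 to -0.12) is the single interval that leaves out 0.

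Among the ligands, 11 of 14 listed symbols were found, 9 with a lower and 2 with a higher mean log2 value in KLF2 libraries, at a median log2 fold change of -0.27. TGFB1, the prototype of the family, lies on chromosome 38 from 276343 to 285137 (ENSGALG00010008327; coordinates here and below are the table's, in GRCg7b). It had 2944, 3722 and 5033 normalized counts in KLF2 1 to 3, against 5047, 4387 and 4408 in EV 1 to 3. KLF2 1 and KLF2 2 lay below all EV libraries, and KLF2 3 lay within the EV range. The log2 fold change of -0.27 (SE 0.18, 95% interval from -0.67 to 0.12) had an adjusted p of 0.962.

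TGFB3, an isoform needed for palate fusion in mice, lies on chromosome 5 from 37968010 to 37982615 (ENSGALG00010005146). It had 1353, 1425 and 2236 normalized counts in KLF2 1 to 3, against 2464, 2035 and 2004 in EV 1 to 3, the same order of libraries within the KLF2 group as TGFB1. For TGFB3 the log2 fold change was -0.41 (SE 0.19, 95% interval from -0.82 to 0.01, adjusted p = 0.962). TGFB2, the isoform at the lowest level of the 3, had 228, 263 and 219 normalized counts in KLF2 1 to 3 and 158, 223 and 222 in EV 1 to 3, with overlapping groups and a log2 fold change of 0.25 (SE 0.21). CCDC97 overlaps TGFB1 and IFT43 overlaps TGFB3 by start and end on the chromosome, and reads from a stretch they share cannot be told apart.

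INHBA encodes the subunit of activin A and lies on chromosome 2 from 50578242 to 50593206 (ENSGALG00010007868). It had 1.02, 6.21 and 2.87 normalized counts in KLF2 1 to 3, against 11.8, 7.14 and 10.5 in EV 1 to 3. The groups did not overlap, at a level where 1 read is worth about 1 normalized count. The share of all genes without overlap was not computed at this level. In limma the log2 fold change was -1.47 (SE 0.63, 95% interval from -2.83 to -0.12), with a p of 0.0354 before and 0.962 after adjustment. The authors' deposited table gave INHBA an unadjusted p of 0.116. INHBB, which encodes the activin B subunit, had 8.29 to 14.3 normalized counts in KLF2 and 12.2 to 22.7 in EV libraries.

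The BMP and GDF ligands were low. GDF6, a ligand of joint development in mice, was named after its values were seen: it had 1.02, 1.04 and 22.0 normalized counts in KLF2 1 to 3, against 37.5, 9.17 and 16.2 in EV 1 to 3. KLF2 3 lay inside the EV range, and the log2 fold change in limma was -2.05 (SE 0.95, adjusted p = 0.962). Other fits gave a smaller change for GDF6: the authors' deposited log2 fold change was -1.38 and that of edgeR -1.35. BGLAP was the 1 bone and cartilage marker found of 4 listed. It had 2.03, 3.11 and 22.9 normalized counts in KLF2 1 to 3, against 32.5, 8.15 and 13.4 in EV 1 to 3. The order of libraries was the same as for GDF6, but it was not particular to this pair. Scores on the first principal component ranked the libraries in that order too. KLF2 3 and EV 1 were the 2 highest libraries for 24.7% of all genes averaging 10 or more. The part of BGLAP in the GDF6 values was not tested.

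BMP2, the highest of the BMPs found by name, had 38.6 to 62.1 normalized counts in KLF2 and 37.7 to 63.1 in EV libraries (log2 fold change -0.05, SE 0.33). BMP5 had 8.29 to 20.3 in KLF2 and 5.92 to 27.5 in EV libraries, BMP6 had at most 6.69 in KLF2 and 11.2 in EV libraries, and BMP4 and GDF5 had no read in at least 2 of the 6 libraries. The span of BMP6 overlaps that of TXNDC5. BMP3, BMP7 and GDF10 were not found by name and are not analysed here.

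Latent TGF-beta binding proteins tie secreted TGF-beta to the extracellular matrix. LTBP1, on chromosome 3 from 30814384 to 30996618 (ENSGALG00010007719), had 7298, 7695 and 5025 normalized counts in KLF2 1 to 3, against 5183, 6647 and 6402 in EV 1 to 3. KLF2 1 and KLF2 2 were the 2 highest libraries and KLF2 3 the lowest, so the groups overlapped (log2 fold change 0.12, SE 0.18, 95% interval from -0.26 to 0.50). LTBP2, a microfibril-associated relative, had 9.14, 10.4 and 13.4 normalized counts in KLF2 1 to 3 and 14.8, 11.2 and 8.60 in EV 1 to 3, with overlap (log2 fold change -0.05, SE 0.46). Its span overlaps that of NPC2. LTBP3 and LTBP4 were not found by name.

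Among 8 of 10 listed receptors that were found, 5 had a higher and 3 a lower mean log2 value in KLF2 libraries, and log2 fold changes ran from -0.33 to 0.21. Levels per kb set apart the receptor chains: ACVR2A, an activin and BMP type II receptor, averaged 548 per kb, against 60.8 for TGFBR2, the type II receptor of TGF-beta, 38.0 for BMPR2 and 5.32 for ACVR2B. ACVR2A, on chromosome 7 from 34110161 to 34167721 (ENSGALG00010009474), had 3411, 3399 and 2480 normalized counts in KLF2 1 to 3, against 2801, 3278 and 3276 in EV 1 to 3. The groups overlapped, KLF2 3 being the lowest library (log2 fold change -0.02, SE 0.16, 95% interval from -0.37 to 0.32). Its span overlaps that of ORC4. Among type I chains found by name, BMPR1A stood at 191 per kb, TGFBR1 at 167 and the activin receptor ACVR1B at 18.8. BMPR1A and TGFBR1 overlapped over libraries, from 146 to 230 and from 134 to 213 per kb. The type I chain ACVR1, present only under another name (Other observations), stood higher, at 491 per kb.

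TGFBR1, the type I receptor of TGF-beta, on chromosome 2 from 55605120 to 55641715 (ENSGALG00010007951), had 1419, 1266 and 921 normalized counts in KLF2 1 to 3, against 890, 1104 and 1092 in EV 1 to 3. KLF2 1 and KLF2 2 lay above all EV libraries and KLF2 3 within their range (log2 fold change 0.21, SE 0.18, 95% interval from -0.18 to 0.60). ACVR1B had 47.7, 57.0 and 57.3 normalized counts in KLF2 1 to 3, against 88.7, 56.1 and 63.1 in EV 1 to 3, with overlap (log2 fold change -0.33, SE 0.29). The other 5 receptors, TGFBR2, the co-receptor TGFBR3, BMPR1A, BMPR2 and ACVR2B, had log2 fold changes from -0.08 in TGFBR2 to 0.11 in TGFBR3. ACVR1 and BMPR1B were not found by name.

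The SMAD proteins carry the signal from receptor to nucleus, and 7 of 8 listed were found, 2 with a higher and 5 with a lower mean log2 value in KLF2 libraries (log2 fold changes -0.31 to 0.18). SMAD5 of the BMP arm led by level with 543 per kb, ahead of SMAD1 at 470, SMAD3 at 431 and SMAD2 at 275 per kb, whereas SMAD7, SMAD9 and SMAD6 stood at 65.8, 39.8 and 39.5 per kb. The ranges of SMAD5, SMAD1 and SMAD3 over libraries overlapped, from 393 to 711, 398 to 502 and 390 to 473 per kb. Summed per kb, the BMP-arm SMADs (SMAD1, SMAD5 and SMAD9) came to 1077 ± 123 in KLF2 libraries, against 1028 ± 124 in EV libraries, and the TGF-beta-arm SMADs (SMAD2 and SMAD3) to 713 ± 87.7 in KLF2 libraries, against 701 ± 35.7 in EV libraries (SD, n = 3 each).

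SMAD5, on chromosome 13 from 14706060 to 14734383 (ENSGALG00010015829), had 4249, 3707 and 2441 normalized counts in KLF2 1 to 3, against 2349, 3454 and 3282 in EV 1 to 3. KLF2 1 and KLF2 2 were the highest libraries and KLF2 3 lay below EV 2 and EV 3 (log2 fold change 0.18, SE 0.22, 95% interval from -0.30 to 0.65). SMAD2 had 1243, 1138 and 860 normalized counts in KLF2 1 to 3 and 791, 1088 and 967 in EV 1 to 3, the same arrangement (log2 fold change 0.18, SE 0.18). SMAD6, an inhibitory SMAD that restrains BMP receptors, had 75.1, 69.4 and 61.2 normalized counts in KLF2 1 to 3, against 115, 83.6 and 63.1 in EV 1 to 3, with overlap (log2 fold change -0.31, SE 0.29). SMAD1 and SMAD3 were steadier: their highest library was 1.26 and 1.21 times their lowest, against 1.81 times for SMAD5, and their log2 fold changes were -0.07 and -0.08 (95% intervals -0.38 to 0.25 and -0.38 to 0.22). SMAD7, also an inhibitory SMAD, had 225 to 275 normalized counts in KLF2 libraries, against 236 to 311 in EV libraries (log2 fold change -0.11, SE 0.20). SMAD9 had 119 to 159 in KLF2 libraries, against 141 to 178 in EV libraries (-0.14, SE 0.23). SMAD4 was not found by name.

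Of 7 antagonists and decoys, 2 had a higher and 5 a lower mean log2 value in KLF2 libraries. BAMBI, a membrane pseudoreceptor without a kinase domain, was at the highest level of the 7, and lies on chromosome 2 from 15223577 to 15228937 (ENSGALG00010005176). It had 1313, 1368 and 1595 normalized counts in KLF2 1 to 3, against 1311, 1659 and 1309 in EV 1 to 3, with a log2 fold change of 0.00 (SE 0.15, 95% interval from -0.33 to 0.34). KLF2 libraries averaged 1425 ± 149 and EV libraries 1427 ± 202 (SD, n = 3 each).

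FSTL1, a secreted follistatin-like glycoprotein that is high in preadipocytes and fibroblasts of mammals, lies on chromosome 1 from 79909198 to 80158564 (ENSGALG00010025032). It had 1432, 1388 and 1548 normalized counts in KLF2 1 to 3, against 1627, 1581 and 1571 in EV 1 to 3. The groups did not overlap but the gap was small: KLF2 libraries averaged 1456 ± 82.7 and EV libraries 1593 ± 29.9 (SD, n = 3 each), for a log2 fold change of -0.13 (SE 0.13, 95% interval from -0.42 to 0.16, adjusted p = 0.962). The annotated span of FSTL1 overlaps those of GSK3A and LRRC58, and reads from a shared stretch cannot be told apart.

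FST and FSTL3, which bind activins, had log2 fold changes of 0.07 (SE 0.19) and -0.08 (SE 0.23), with 325 to 418 and 151 to 215 normalized counts in KLF2 libraries and 317 to 405 and 170 to 248 in EV libraries. GREM1, NOG and CHRD, secreted antagonists of BMPs, averaged under 10 normalized counts. GREM1 had 0, 0 and 3.82 normalized counts in KLF2 1 to 3, against 1.97, 5.10 and 6.69 in EV 1 to 3, with overlap (log2 fold change -1.62, SE 0.79, adjusted p = 0.962). NOG and CHRD had at most 8.29 and 11.4 normalized counts in KLF2 and 8.87 and 10.8 in EV libraries.

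ID1 to ID4 encode helix-loop-helix proteins that lack a DNA-binding region and hold other factors of that class off DNA. Their summed normalized counts were 515, 784 and 1079 in KLF2 1 to 3, against 1209, 814 and 714 in EV 1 to 3, so the spread within each group was wider than the difference between the means, 793 in KLF2 and 912 in EV libraries. ID4, which led the 4 by level per kb and lies on chromosome 2 from 59459266 to 59461910 (ENSGALG00010006926), had 278, 398 and 528 normalized counts in KLF2 1 to 3, against 673, 479 and 398 in EV 1 to 3. For ID4 the log2 fold change was -0.38 (SE 0.26, 95% interval from -0.94 to 0.18, adjusted p = 0.962). ID3, on chromosome 23 from 2577955 to 2579816 (ENSGALG00010016447), had 81.2, 140 and 253 normalized counts in KLF2 1 to 3 and 244, 159 and 117 in EV 1 to 3 (log2 fold change -0.21, SE 0.41).

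ID3 varied 3.12-fold and ID1 4.37-fold between their highest and lowest library, ID4 2.42-fold and ID2 1.70-fold. ID1 and ID2 had log2 fold changes of 0.10 (SE 0.57) and 0.04 (SE 0.25). KLF2 1 was the lowest of the 6 libraries for each of the 4 ID genes, and the highest was EV 1 for ID1 and ID4 and KLF2 3 for ID2 and ID3. That place of KLF2 1 was not particular to the ID genes. It was also the lowest library for TGFB1, TGFB3, SMAD1, FSTL3 and TGIF1, and the highest for others such as TGFBR1 and SMAD5. With all 6 libraries, the 95% interval lay within 2-fold for ID2 and ID4, and reached past it for ID1 and ID3. Without KLF2 3, the interval of ID4 also reached past 2-fold.

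The 5 intracellular regulators had the narrowest span of log2 fold changes of the 7 roles, from -0.04 to 0.06. SKI and SKIL are nuclear co-repressors of SMADs, TGIF1 is a homeobox repressor, and SMURF1 and SMURF2 are ubiquitin ligases. SKI, on chromosome 21 from 1669921 to 1762640 (ENSGALG00010020038), led by level, with a range over libraries that overlapped that of TGIF1, and had 1425, 1372 and 1164 normalized counts in KLF2 1 to 3, against 1152, 1377 and 1392 in EV 1 to 3 (log2 fold change 0.01, SE 0.15, 95% interval from -0.31 to 0.34). SMURF2 had 662, 638 and 672 normalized counts in KLF2 1 to 3 and 667, 631 and 598 in EV 1 to 3, within 1.12-fold over all libraries. TGIF1 had 543, 547 and 634 in KLF2 1 to 3 and 637, 577 and 560 in EV 1 to 3, and the groups of all 5 regulators overlapped. SKIL had 747 to 898 normalized counts in KLF2 libraries, against 782 to 880 in EV libraries (log2 fold change 0.01, SE 0.15). SMURF1, whose span overlaps those of FSCN1 and ENSGALG00010021271, had 247 to 333 in KLF2 libraries, against 233 to 383 in EV libraries (-0.00, SE 0.22).

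**Figure D3:**
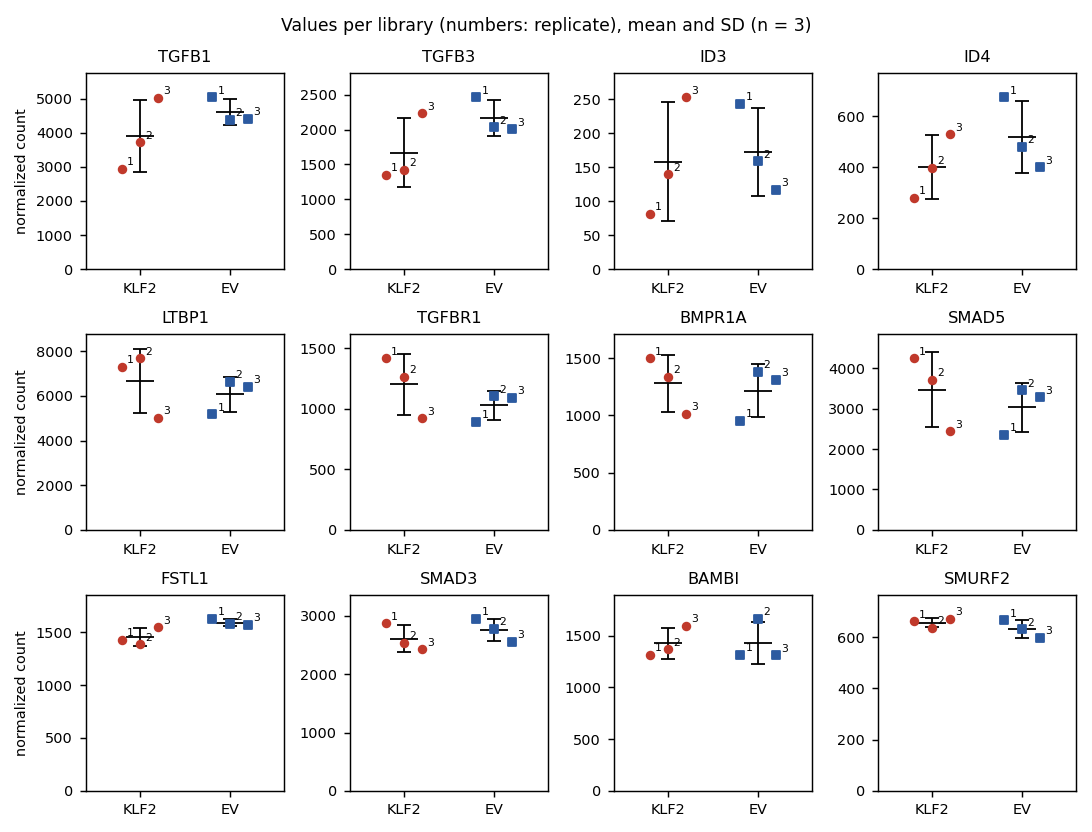
Normalized counts per library for 12 members of several roles, with the mean and SD of each group (n = 3); numbers are replicate numbers. The members shown were chosen after their values were seen. KLF2 3 and EV 1 are the 2 highest libraries for TGFB1, TGFB3, ID3 and ID4 and the 2 lowest for LTBP1, TGFBR1, BMPR1A and SMAD5, while SMURF2 varies within 1.12-fold.

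The 2 libraries that stood apart over all genes, KLF2 3 and EV 1, also lay together for many members. Over the 37 members with a mean of at least 10, the highest library was at the median 1.59 times the lowest. It was 1.57 times the lowest over 11775 genes of this level with a read in every library. The members' median fold between group means was 1.08, in either direction. By construction that fold cannot exceed the fold between the highest and lowest library. KLF2 3 and EV 1 together held the 2 lowest values for 12 of the 37 (32.4%, against 25.1% of all genes at this level) and the 2 highest for another 12 (32.4%, against 24.7%). The 12 at the low end were TGFB2, LTBP1, 5 receptors (TGFBR1, TGFBR3, BMPR1A, BMPR2 and ACVR2A), SMAD2, SMAD5, FST, SKI and SKIL. The 12 at the high end were TGFB1, TGFB3, INHBB, GDF6, LTBP2, TGFBR2, ID2, ID3, ID4, TGIF1, SMURF1 and SMURF2. The ratio of TGFB1 to TGFBR1 normalized counts was 2.08, 2.94 and 5.46 in KLF2 1 to 3, against 5.67, 3.97 and 4.04 in EV 1 to 3. Such a ratio shows unequal change and not which of the pair moved. With TGFB1 at the high end and TGFBR1 at the low end, it is highest in KLF2 3 and EV 1 by construction.

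Listed gene length went with this split. The 12 members lowest in KLF2 3 and EV 1 had a median length of 5343 bases, and the 12 highest there 2936.5 bases; over all genes of that level the medians were 4326 bases for 2954 genes at the low end and 2600 bases for 2907 at the high end. The part of gene length in the members' values was not tested.

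**Figure D4:**
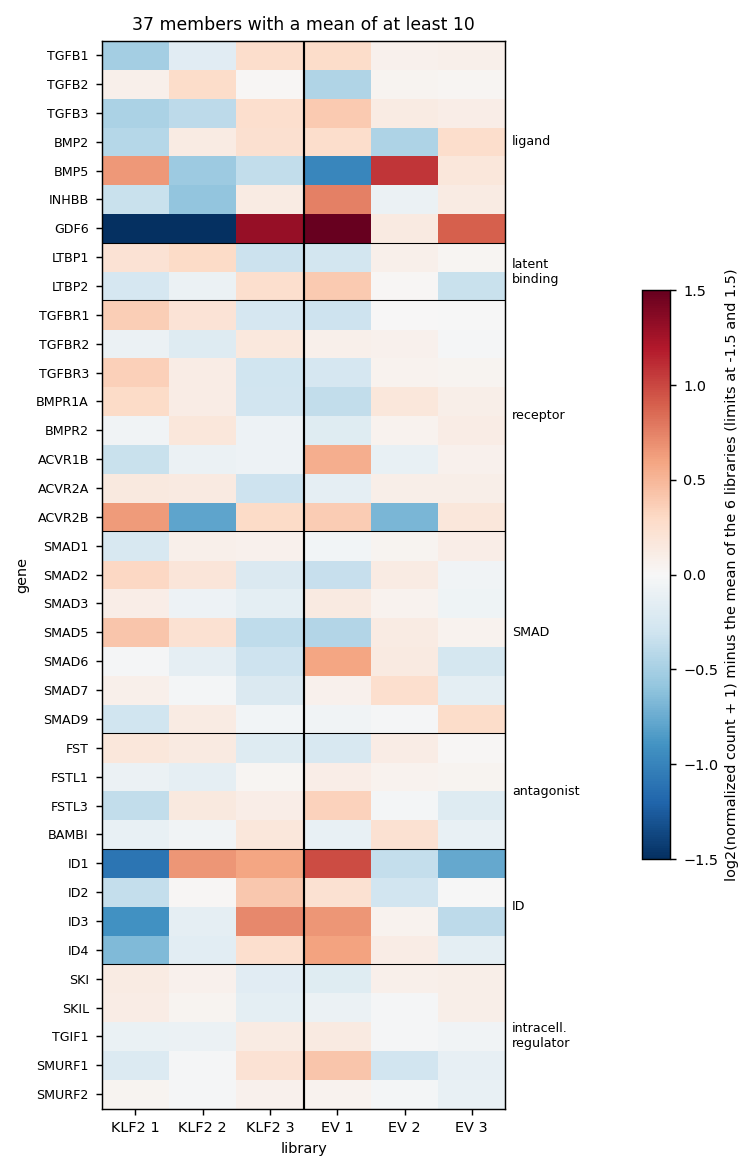
Deviation of each of the 37 members with a mean of at least 10 from its mean over the 6 libraries, on the log2(normalized count + 1) scale, by role (rows) and library (columns); the line parts KLF2 from EV libraries. In 24 of the 37 rows KLF2 3 and EV 1 hold the 2 lowest or the 2 highest values. The 4 ID genes are lowest in KLF2 1, as are some members of other roles, such as TGFB1 and TGIF1.

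Because KLF2 3 and EV 1 stood apart, the comparison was also made without them, a setting chosen after seeing the data. No member passed the threshold then either; 4 genes of the whole table did. An unadjusted p under 0.05 was then found for 7 of 44 members (15.9%), against 10.0% of 17061 tested genes. TGFB3 had a log2 fold change of -0.54 (SE 0.12, adjusted p = 0.0633), TGFB1 of -0.41 (SE 0.11, adjusted p = 0.12) and ID4 of -0.39 (SE 0.18, adjusted p = 0.457). TGFBR1 had 0.29 (SE 0.13, adjusted p = 0.423) and SMAD5 0.24 (SE 0.11, adjusted p = 0.458). GDF6 and GREM1, at low counts, had -2.71 (SE 0.89) and -2.78 (SE 1.04).

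Each of these 7 members kept the sign it had over all 6 libraries. This fit reuses libraries of the full fit, so the kept signs are not separate evidence. For TGFB1, TGFB3, GDF6 and ID4 KLF2 3 was the highest KLF2 library and EV 1 the highest EV library, and for TGFBR1 and SMAD5 they were the lowest, so leaving both out narrows the spread within groups by construction, and the lower p is not read as support. Without KLF2 3 alone 8 members (18.2%), these 7 and LTBP1, were under an unadjusted p of 0.05, against 12.2% of tested genes, and 0 passed the threshold; without EV 1 alone it was 1 member, GREM1, against 1.51% of tested genes. When each library was left out alone, the log2 fold change ran from -0.48 without KLF2 3 to -0.09 without KLF2 1 for TGFB1, from -0.64 to -0.27 for TGFB3 and from -0.60 to -0.14 for ID4, at the same libraries. For TGFBR1 it ran from 0.08 without KLF2 1 to 0.39 without KLF2 3, and for SMAD5 it was 0.0035 without EV 1, 0.011 without KLF2 1 and 0.41 without KLF2 3. GDF6 ran from -3.22 without KLF2 3 to -1.47 without KLF2 1, GREM1 from -2.37 without KLF2 3 to -1.24 without KLF2 1, and INHBA from -1.93 without KLF2 2 to -1.01 without KLF2 1. With 2 libraries a group, the spread of each gene rests largely on that of other genes at its level.

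**Figure D5:**
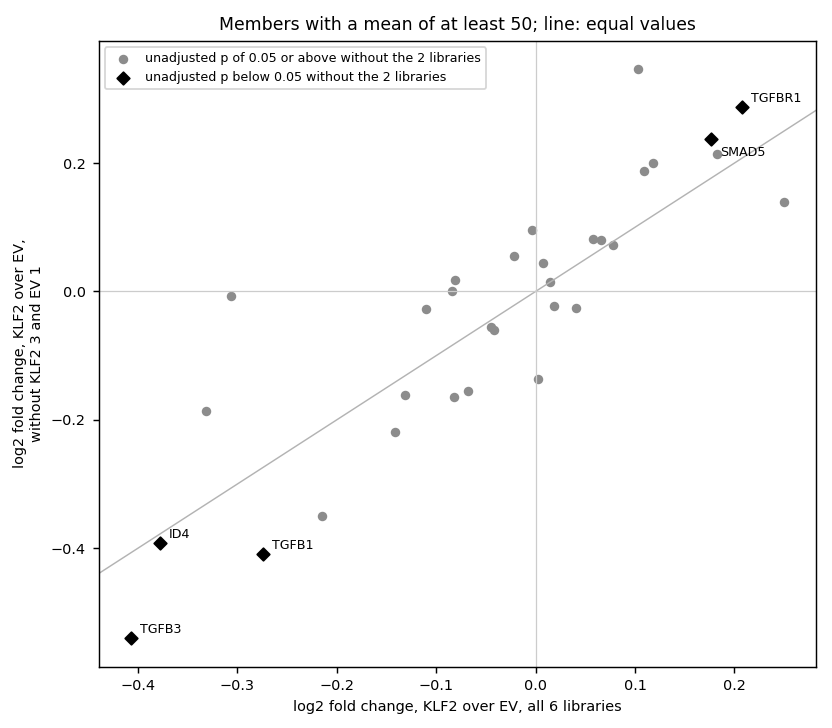
Log2 fold change of KLF2 over EV with all 6 libraries (x axis) and without KLF2 3 and EV 1 (y axis) for the 32 members with a mean of at least 50 normalized counts; the diagonal marks equal values. Diamonds are the 5 of these with an unadjusted p below 0.05 without the 2 libraries. TGFB3, TGFB1 and ID4 lie below 0 and TGFBR1 and SMAD5 above. For 25 of the 32 the sign is the same on both axes, which share libraries and are not separate evidence.

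No call was made among other genes of the pathway either. Of 81 other symbols of the pathway, 59 were found and 54 tested, 23 with a higher and 31 with a lower mean log2 value in KLF2 libraries at a median log2 fold change of -0.05; 0 passed the threshold and 0 had an unadjusted p under 0.05, against 2.11% of all tested genes. Of 12 tested transcripts that TGF-beta or BMP often raises, 2 were higher and 10 lower in mean log2 value, at a median of -0.19. Over all 16765 tested genes, 8229 were higher and 8536 lower. KLF2 3 and EV 1 held the 2 highest values for 4 of the 12 transcripts and the 2 lowest for 0. Over all genes with a mean of at least 10 they did so for 24.7% and 25.1%. The lowest p among the 12 was that of CDKN1A, a cell cycle inhibitor. It had 86.3, 80.8 and 116 normalized counts in KLF2 1 to 3 and 153, 134 and 96.5 in EV 1 to 3, with overlap (log2 fold change -0.43, SE 0.27, adjusted p = 0.962). CCN2, a matricellular protein widely used as a readout of TGF-beta, averaged 2482 in KLF2 and 2606 in EV libraries (log2 fold change -0.07) and was named after its value was seen.

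FURIN, the protease that cuts TGF-beta precursors, had 638, 917 and 1059 normalized counts in KLF2 1 to 3, against 1526, 945 and 984 in EV 1 to 3, with overlap (log2 fold change -0.40, SE 0.23). It had the lowest p among 9 tested genes of latent TGF-beta activation and ligand processing, of which 7 were higher and 2 lower in mean log2 value (median 0.13). USP15, a deubiquitinase of the pathway, had the lowest p among 17 other intracellular regulators, of which 8 were higher and 9 lower (median -0.00), with a log2 fold change of 0.19 (SE 0.18). The list of other receptors and co-receptors had 7 tested genes, 4 higher and 3 lower (median 0.02), and included TWSG1, a secreted protein. In this list RGMA, a BMP co-receptor, had -0.26 (SE 0.26). Among 5 other antagonists, 2 higher and 3 lower (median -0.21), BMPER, a BMP-binding protein, had -0.32 (SE 0.25), and among 4 other ligands, 0 higher and 4 lower (median -0.86), GDF3 had -1.26 (SE 0.73), averaging 8.57 normalized counts in KLF2 libraries, against 17.3 in EV libraries.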

How the data were processed

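The submitters' processing notes list fastp, HISAT2 (2.0.5), StringTie (1.3.3b), featureCounts (1.5.0-p3) and the genome build GRCg7b. Software for the normalization and the deposited tests was not given in the sources used here. DESeq2 on recovered reads gave the deposited p for TGFB3 (0.0914) and INHBA (0.116). For every gene in each library the authors deposited a normalized count, a kind of signal. Dividing each library by its lowest value above 0 made 100% of values whole (tolerance 1e-06), so read counts could be recovered. Per the file headers, the authors' table adds log2 fold changes of KLF2 over EV, p-values, adjusted p-values and gene lengths.

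Computed here with limma 3.58.1 (R 4.3.3): a robust trend fit of log2(normalized count + 1) on the 16765 genes whose mean reached 1 in KLF2 or EV libraries, two-sided, with Benjamini-Hochberg adjustment over all of these and a threshold of 0.05. As alternatives, recovered reads went into edgeR 4.0.16 (quasi-likelihood, TMM) and DESeq2 1.42.0; each called 0 genes, and edgeR listed 150 of 11860 and DESeq2 173 of 18492 genes at an unadjusted p under 0.05. The limma step was tested on simulated counts drawn independently for each gene. They held no variation shared across genes like that of the first principal component, so that check does not bear on the result here. Since the labels name no stranded kit, reads of overlapping genes were treated as inseparable. Members, roles, lists and tests were chosen with earlier results of these data known. In each role, values per library are given for the member with the highest level per kb, the 2 with the lowest unadjusted p and any with a mean of at least 10 and no overlap; others given were named after their values were seen. Of the other pathway lists, the gene with the lowest p and a mean of at least 10 is named.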

Additional observations from a re-analysis of the deposited data

How the results depend on the processing

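The count of 0 members past the threshold held under all 15 alternatives. The count over all genes was 0 under 14 of them and 4 without KLF2 3 and EV 1 together. With the replicate number as a block, 0 members and 0 genes passed, and the members' median log2 fold change was -0.06. Residual correlations of libraries with the same number were -0.60, 0.14 and -0.51. With residuals centred on 3 libraries a group, they cannot show whether wells with the same number were handled together. The members' median log2 fold change lay between -0.12 and -0.04 when each library was left out and 0 genes and 0 members passed. Of 645 member values under alternatives, 585 kept their sign and side of the threshold and 60 turned sign, in 24 members. The lowest adjusted p of a member over the alternatives was 0.0633, and the highest 1.00.

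BAMBI turned to -0.0013 in edgeR and -0.0011 in DESeq2. Without KLF2 3 and EV 1, 8 members turned sign: SMAD3 to 0.018, BMPR2 to -0.023, ACVR2A to 0.055, FSTL3 to 0.00024, NOG to 0.37, BAMBI to -0.14, ID2 to -0.026 and SMURF1 to 0.10. When each library was left out alone, 23 members turned sign, over these ranges of log2 fold change: ACVR2A -0.10 to 0.13, ACVR2B -0.23 to 0.50, BAMBI -0.081 to 0.12, BMP2 -0.29 to 0.16, BMP4 -1.48 to 0.0023, BMP5 -0.71 to 0.31, BMP6 -0.61 to 0.21, BMPR1A -0.089 to 0.24, BMPR2 -0.069 to 0.076, CHRD -0.84 to 0.17, FST -0.036 to 0.18, FSTL3 -0.20 to 0.077, ID1 -0.26 to 0.68, ID2 -0.15 to 0.23, ID3 -0.63 to 0.19, LTBP2 -0.23 to 0.13, NOG -0.39 to 0.15, SKI -0.074 to 0.10, SKIL -0.048 to 0.084, SMAD1 -0.12 to 0.033, SMURF1 -0.15 to 0.21, TGFBR3 -0.042 to 0.29, TGIF1 -0.12 to 0.013. The cause was not tested. The other 21 members kept their sign in each fit that held them. GDF5 had 0 normalized counts in KLF2 1 and KLF2 3, so without KLF2 2 it fell under the filter and had no value. BMP4, BMP6, NOG and CHRD averaged under 10 normalized counts, which limits their precision.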

Other observations

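Some listed symbols that were not found by name have rows under other names, which were looked up after the members had been set. ATVR1, for which the RefSeq name table gives ACVR1 as a synonym, lies on chromosome 7 from 35870706 to 35915580. It had 2524, 2263 and 2444 normalized counts in KLF2 1 to 3, against 2129, 2372 and 2179 in EV 1 to 3 (log2 fold change 0.11, SE 0.13, adjusted p = 0.962 in limma). Its level was 491 per kb, against 548 for ACVR2A and 191 for BMPR1A, the highest type I chain found by name.

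The table describes a gene without a symbol, ENSGALG00010008474 on chromosome 38, as related to the human protein LTBP4. It had 111, 137 and 195 normalized counts in KLF2 1 to 3, against 203, 179 and 155 in EV 1 to 3 (log2 fold change -0.31, SE 0.25). A pair of genes is described as related to human SMAD4, one on chromosome W (ENSGALG00010012103) and one on chromosome Z (ENSGALG00010009370). The W gene had 111, 161 and 307 normalized counts in KLF2 1 to 3, against 456, 242 and 269 in EV 1 to 3 (log2 fold change -0.81, SE 0.38, adjusted p = 0.962). The Z gene had 134, 192 and 232 in KLF2 1 to 3, against 235, 199 and 126 in EV 1 to 3 (log2 fold change 0.01, SE 0.28). How the authors' counting divided reads between W and Z copies was not examined, so both values are uncertain.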
